A study of Mus musculus with 9 samples.

Results

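Whole genome bisulfite sequencing (WGBS) covers most CpGs of the mouse genome to a modest depth, but a small set of repeat CpGs was covered far more deeply. These CpGs were taken as those with more than 500 reads in each of the WT, *Dnmt3a* KO and *Dnmt3b* KO tables, and CpGs within 500 bp of each other were joined into loci. This gave 3254 CpGs in 1091 loci, out of 13749032 CpGs listed for all 3 genotypes, and 527 of the loci held a single CpG. The CpGs were chosen by their read depth (total reads in each table), so that depth is described below and only methylation is compared.

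The samples were J1 mouse embryonic stem cells (ESCs) of the 129S4/SvJae strain, grown on gelatin in serum with LIF, either wild type (WT) or lacking *Dnmt3a* or *Dnmt3b*. The labels do not say whether each KO line is a single clone. There were 3 libraries for each genotype, and the authors merged them into 1 table of CpGs, so that each value pools a genotype, has no replicate error and could not be tested between genotypes. The WT table ends on chromosome 4, after chromosomes 1, 10 to 19, 2 and 3, and comparisons with WT cover these chromosomes.

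DNMT3A and DNMT3B are the de novo DNA methyltransferases, and DNMT1 copies methylation to the new strand after replication. Mouse centromeres are built from tandem arrays of minor satellite DNA, to which the protein CENP-B binds, and are flanked by arrays of major satellite DNA. LINE-1 (L1) elements are retrotransposons with a regulatory 5′ region made of repeated monomers and reading frames called ORF1 and ORF2, and ORF2 encodes the endonuclease and reverse transcriptase. Ribosomal RNA genes lie in tandem arrays, and pieces of the mitochondrial genome, which carries little or no CpG methylation, have been copied into the chromosomes.

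The repeat units on which the results turn were read from the mm9 reference (plus strand unless stated), with every CpG in capitals. The major satellite unit of 234 bp (chr2:98506748-98506981) and the minor satellite unit of 120 bp (chr2:98502713-98502832) are shown because CpGs at different places in them differed in methylation. Places are counted from 1 at the first base shown, and some copies carry a CpG at a place where the unit shown has none (major places 74 and 227, minor place 120).
Major satellite unit: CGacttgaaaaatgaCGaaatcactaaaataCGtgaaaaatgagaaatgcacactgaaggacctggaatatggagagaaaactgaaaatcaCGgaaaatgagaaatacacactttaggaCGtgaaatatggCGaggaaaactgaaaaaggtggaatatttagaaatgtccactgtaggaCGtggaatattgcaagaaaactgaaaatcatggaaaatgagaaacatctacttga
Minor satellite unit: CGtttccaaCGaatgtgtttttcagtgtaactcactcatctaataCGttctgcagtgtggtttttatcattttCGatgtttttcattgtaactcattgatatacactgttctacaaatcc
The CENP-B box, the binding motif of CENP-B, was searched on both strands. It occurred at the junction of neighbouring minor units (chr2:98502830-98502846, minus strand) and covered the CpGs at places 1 and 10, while the major unit held no match.
CENP-B box match: attCGttggaaaCGgga
Of the windows of 120 bp on chromosome 2, 0.00296% held the motif, and 3 of the 1091 loci did, which were all satellite loci.

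Sequence stretches of L1 are shown because CpGs at different positions of ORF2 differed in *Dnmt3b* KO ESCs, and because the 5′ region differed from the rest of the element. The ORF2 stretches come from chr10:73062753-73062852 and chr10:64234710-64234809 (both minus strand), and the 5′ region from chr11:71198080-71198319.
L1 ORF2, bases around 257 and 267: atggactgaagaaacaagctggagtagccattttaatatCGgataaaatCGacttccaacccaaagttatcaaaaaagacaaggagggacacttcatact
L1 ORF2, bases around 2535: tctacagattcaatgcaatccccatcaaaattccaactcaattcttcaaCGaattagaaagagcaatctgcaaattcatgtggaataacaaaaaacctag
L1 5′ region: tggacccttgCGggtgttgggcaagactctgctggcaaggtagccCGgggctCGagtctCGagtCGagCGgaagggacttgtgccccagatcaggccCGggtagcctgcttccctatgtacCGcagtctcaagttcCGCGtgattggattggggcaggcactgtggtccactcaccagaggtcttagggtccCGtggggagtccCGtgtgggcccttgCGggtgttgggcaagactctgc

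The 3254 CpGs held 32.8% of the reads of the shared CpGs in WT, 33.2% without *Dnmt3a* and 28.9% without *Dnmt3b*. Their median depth was 875 reads in WT, against 22 for all shared CpGs, and the deepest CpG had 15468350 WT reads. The exact 32 bases around the CpG occurred at more than 1 place of the genome for 69.5% of them, against 11.8% of CpGs with 10 to 500 reads. At such CpGs a read may come from any of the copies, so that a value may average over copies and its coordinates name only the listed place. CpGs of the set found at 1 place are over 500 reads deep by the rule that chose them. Whether they pool reads of copies that the reference lacks was not tested. CpGs just inside the limit (501 to 550 reads, n = 390) had a mean methylation of 75.01% in WT, 52.0% without *Dnmt3a* and 67.4% without *Dnmt3b*, and those just outside (451 to 500 reads, n = 451) had 76.9%, 52.8% and 68.5%.

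Methylation of these repeat CpGs was lower in both KO lines, and more so without *Dnmt3a*. Their mean was 62.8% in WT, 43.4% without *Dnmt3a* and 57.0% without *Dnmt3b*. Among all CpGs with at least 10 reads the means were 85.02%, 52.0% and 78.0%. In *Dnmt3a* KO ESCs, 1604 of the 3254 CpGs (49.3%) were lower than WT by over 20 percentage points, against 67.4% of all 10503099 CpGs with at least 10 reads. In *Dnmt3b* KO ESCs, 234 CpGs (7.19%) were lower by as much, against 16.9% of all. By lowest depth over the tables, the shares were 66.2% without *Dnmt3a* and 18.1% without *Dnmt3b* at 10 to 20 reads. They were 57.4% and 9.85% at 50 to 100 reads, and 61.6% and 11.8% at 400 to 500. All CpGs are mostly of low depth, so that their shares here and below cannot be compared directly with those of the set. Of the 3254 CpGs, 885 were below 20% in WT and could not be lower by that amount, and their part in the shares of the set was not tested. No CpG of the set was higher than WT by over 20 points in either line, against 0.356% of all CpGs without *Dnmt3a* and 2.78% without *Dnmt3b*. These shares of all CpGs are likewise taken mostly over CpGs of far lower depth, and matched depths were not compared. Between the KO lines, 933 CpGs (28.7%) were higher by over 20 points in *Dnmt3b* KO than in *Dnmt3a* KO ESCs, against 56.7% of all, and 4 were lower by as much, against 1.49%. With the whole 95% credible interval of the difference beyond 20 points, 845 CpGs (25.97%) were lower in *Dnmt3a* KO ESCs, against 26.7% of all CpGs tested this way, and 91 (2.80%) in *Dnmt3b* KO ESCs, against 2.32%. Counts over 200 reads were scaled to 200 for these intervals, and the median depth of all shared CpGs was 22 reads in WT, so that the intervals of the set were narrower and these shares cannot be compared directly. Over the 1091 loci, the median difference from WT was -24.07 points in *Dnmt3a* KO and -4.82 points in *Dnmt3b* KO cells. Flanking CpGs 1 to 5 kb from the loci had median differences of -27.36 and -6.79 points. Reads at the loci may come from other copies, so that locus and flank values may describe different DNA.

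Loci were sorted into classes by their sequence and annotation, and the classes were chosen with earlier results of these data known. L1 elements made up 957 loci (1900 CpGs), the ribosomal locus 508 CpGs, the *Sfi1* cluster 43 loci (331 CpGs), CpG-dense pieces 4 loci (137 CpGs), mitochondrial copies 4 loci (93 CpGs) and satellites 6 loci (75 CpGs), and 76 loci (210 CpGs) belonged to no class. Major satellite CpGs held most of the reads, with 152809396 WT reads at 52 major satellite CpGs. Low methylation in WT (below 20%) was found at 885 of the 3254 CpGs, of which 508 lay in the ribosomal locus, 137 in CpG-dense pieces, 93 in mitochondrial copies, 93 in L1, 40 in loci of no class, 13 in the *Sfi1* cluster and 1 in a satellite locus. Methylation of 80% or more was found at 117 CpGs without *Dnmt3a* and 1508 without *Dnmt3b*, against 1954 (60.05%) for WT. By lowest depth over the tables, this WT share was 78.1% for CpGs of 10 to 20 reads and 70.7% for those of 400 to 500. Below 20% the WT shares were 7.47% and 8.67% at these depths, against 27.2% of the set. Shares of all CpGs at these levels were not computed for the KO lines, so that the KO counts have no background.

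**Figure D1:**
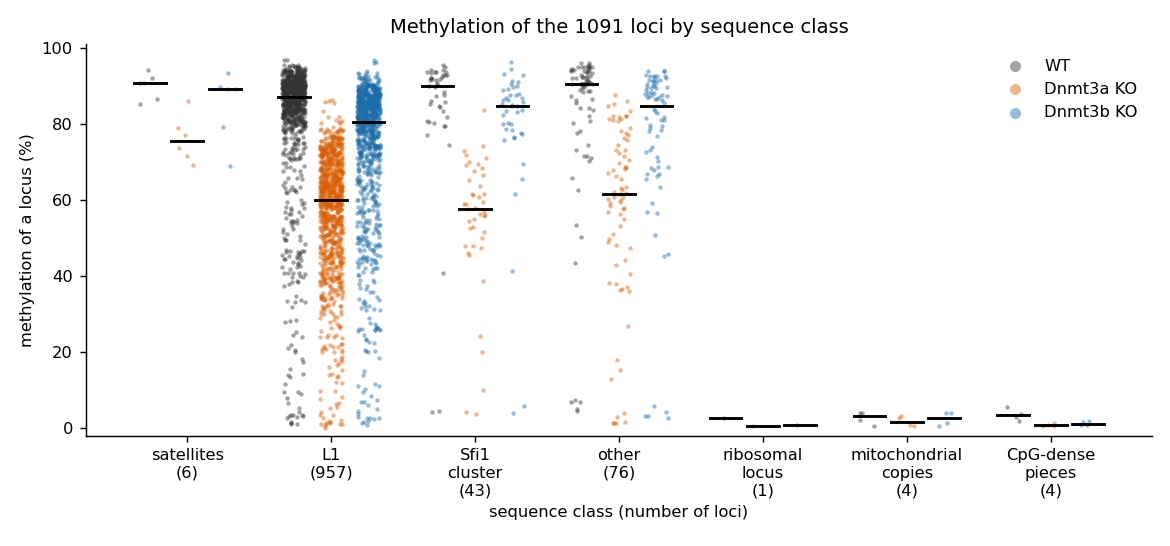
Methylation of each locus in percent (mean of its CpGs, points) by sequence class and genotype, with black bars at the median over loci; each point is 1 pooled value of 3 merged libraries. Most satellite, L1 and *Sfi1* loci lay high in WT and lowest in *Dnmt3a* KO ESCs, while ribosomal, mitochondrial and CpG-dense loci stayed under 6% in all genotypes.

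Major satellite CpGs were nearly as methylated in *Dnmt3b* KO as in WT ESCs and lower in *Dnmt3a* KO ESCs. The 52 CpGs had a mean of 91.9% in WT, 78.4% without *Dnmt3a* and 90.6% without *Dnmt3b*, and all 52 were higher in *Dnmt3b* KO than in *Dnmt3a* KO ESCs. The difference was uneven along the unit. At place 32, the 7 CpGs lay between 91.4% and 94.3% in WT, between 58.2% and 72.5% without *Dnmt3a* and between 88.4% and 92.6% without *Dnmt3b*. The *Dnmt3a* KO values at this place did not reach the WT range or the *Dnmt3b* KO range. The other places with more than 1 CpG had *Dnmt3a* KO means between 76.9% (place 92) and 84.0% (place 16), so that the mean difference from WT was -27.5 points at place 32 and between -14.1 (place 132) and -9.12 (place 16) elsewhere. In *Dnmt3b* KO ESCs the mean differences at these places were between -2.54 (place 32) and -0.82 (place 120) points. At the deepest copy of place 32, position 98507264 of chromosome 2, methylation was 92.8% of 11625208 reads in WT, 61.8% of 10828136 without *Dnmt3a* and 90.2% of 9168962 without *Dnmt3b*.

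Minor satellite CpGs were lower in both KO lines by similar amounts. The 22 CpGs had a mean of 86.9% in WT, 71.3% without *Dnmt3a* and 72.7% without *Dnmt3b*, and 9 of the 22 were lower in *Dnmt3b* KO than in *Dnmt3a* KO ESCs. At place 1, in the CENP-B box match of the unit shown, the 6 CpGs lay between 91.6% and 95.5% in WT, between 76.3% and 78.7% without *Dnmt3a* and between 75.1% and 78.0% without *Dnmt3b*. At this place the ranges of the KO lines overlapped, and both lay below the WT range. At place 10, the other CpG of the match in the unit shown, the 9 CpGs had means of 88.3%, 69.6% and 74.9%. These include 3 copies (positions 98502961, 98506429 and 98506670 of chromosome 2) with a CpG at place 120 in place of that at place 1, where the motif cannot match, and their WT values of 85.5%, 82.0% and 81.0% were the lowest of the 9. Place 74, outside the match, had the largest mean difference of *Dnmt3b* KO ESCs from WT (-24.6 points), with 91.7% in WT, 75.5% without *Dnmt3a* and 67.1% without *Dnmt3b* over 2 CpGs. Only 2 CpGs represented place 46, where WT itself was at 49.2% and the KO lines at 41.4% and 37.8%. One more CpG of these loci could not be placed in either unit and was at 0.72%, 0.61% and 0.60%.

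**Figure D2:**
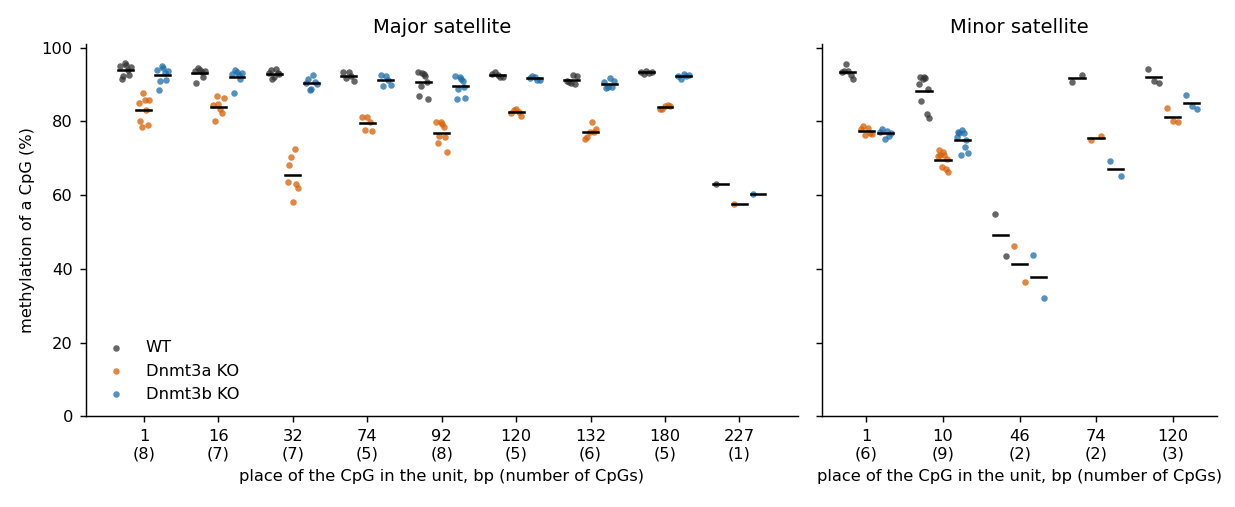
Methylation in percent of each satellite CpG (points) by its place in the repeat unit in bp, with the number of CpGs in brackets and bars at the mean; each point is 1 pooled value. In the major satellite *Dnmt3b* KO values lie just under WT and *Dnmt3a* KO values well under it, most at place 32, and in the minor satellite both KO lines are below WT.

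Satellite loci lay on chromosome 2 (4 loci), 12 and 13. The deepest of them (chr2:98506419-98507483, 30 CpGs, overlapping *Gm10800*) had 138311954 WT reads and a mean of 92.0% in WT, 78.8% without *Dnmt3a* and 89.1% without *Dnmt3b*. The locus at chr2:98505100-98505350, whose 8 CpGs all lay in minor units, stood apart with 86.6%, 69.3% and 68.9%. It was the single satellite locus with a mean over CpGs lower in *Dnmt3b* KO than in *Dnmt3a* KO ESCs (-0.41 points). Its pooled reads had the other order, with 74.3% without *Dnmt3a* and 76.7% without *Dnmt3b*. The major satellite locus on chromosome 12 (chr12:3109883-3110118, 6 CpGs) had 90.8%, 77.2% and 89.8%. At the locus of chromosome 13 (chr13:77578186-77578202, 2 CpGs) the values were 94.2%, 86.0% and 93.4%.

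The bases next to a CpG were compared with methylation, since the places of a unit differ in them. Contexts of 2 bases on each side were read in both orientations, which gives 136 contexts, and the share of the WT level that was kept was taken over CpGs with at least 50% methylation in WT that are not of the set. Place 32 lies in AACGTG in 4 of its 7 copies, a context that kept 44.2% of the WT level in *Dnmt3a* KO ESCs genome-wide, the 4th lowest of 136. The 4 AACGTG copies had 61.7% in *Dnmt3a* KO ESCs and the 3 CACGTA copies 70.4%, with 92.7% and 93.2% in WT. The context CACGTA kept 61.3% genome-wide and ranked 46th. At place 32 itself 70.4% of the WT level was kept. Among the other major places, place 74 (CTCGCC, ranked 9th) kept 86.1%, place 132 (CTCGCC in 4 of 6 copies) 84.5%, places 120 and 180 (CACGTC, 14th) 89.2% and 89.96%, place 1 (GACGAC, 15th) 88.5%, place 92 (CACGGA, 23rd) 84.8% and place 16 (GACGAA, 37th) 90.2%. Minor satellite place 74 lies in ATCGAA, which kept 84.4% of WT in *Dnmt3b* KO ESCs genome-wide and ranked 10th lowest of 136, and place 74 kept 73.2%. Place 46 (AACGTA, 94.0% genome-wide, 83rd) kept 76.9%, place 1 (AACGGG, 22nd) 82.2%, place 10 (mostly AACGAA, 17th) 84.9% and place 120 (ACCGGC, 59th) 92.3%. These values are a description over few copies, and the part of the flanking bases in them was not tested.

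L1 elements were the largest class. CpGs were placed by alignment to 2752 elements with an ORF2 of 1281 codons, in which position 0 is the start codon of ORF2, and ORF1 lies from -1156 to -43. All but 5 of the 1900 CpGs could be placed, at 393 distinct positions, and 23 positions with at least 20 CpGs held 798 of them. Their listed places were uneven, since 1064 of the 1900 CpGs were listed on chromosome 10, and at 1896 of the 1900 over 95% of the WT reads were on the plus strand of the reference. Over all CpGs with at least 50 WT reads, 31.4% had over 95% of the reads on 1 strand. Reads were aligned with BSMAP at its default parameters, what these do with several equal matches is not spelled out in the sources used here, and its part in these counts was not tested. The median number of places with the same 32 bases was 3077.

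L1 methylation had a mean of 80.3% in WT, 56.4% without *Dnmt3a* and 72.8% without *Dnmt3b*. Without *Dnmt3a* 1231 CpGs (64.8%) were lower than WT by over 20 points, and without *Dnmt3b* 208 (10.9%). The shares were 67.4% and 16.9% of all CpGs, and 61.6% and 11.8% of CpGs of 400 to 500 reads. The parts of the element differed. In the 5′ region, the 130 CpGs had 58.99% in WT, 35.1% without *Dnmt3a* and 36.9% without *Dnmt3b*, and 90 of the 130 (69.2%) were lower by over 20 points without *Dnmt3a* and 70 (53.8%) without *Dnmt3b*, against 67.4% and 16.9% of all CpGs. In ORF1, the 349 CpGs had 87.7%, 66.7% and 84.3%, and none was lower by as much in *Dnmt3b* KO ESCs. The 1182 CpGs of ORF2 had 80.9%, 55.5% and 73.6%, and the 232 CpGs of the 3′ region 78.8%, 58.6% and 72.3%. Over loci, the mean difference of *Dnmt3b* KO from *Dnmt3a* KO ESCs was 4.76 ± 9.12 points (SD over 31 loci) in the 5′ region and 17.6 ± 7.65 points (SD over 928 loci) in ORF1, ORF2 and the 3′ region. In the 5′ region 12 of the 31 loci were lower in *Dnmt3b* KO than in *Dnmt3a* KO ESCs, against 3 of 928 loci elsewhere. These spreads are between loci that share sequence and are not replicates of a genotype.

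CpGs of 10 to 500 reads inside the 2752 elements used for placing, which the depth rule did not take, were read along the same profile. They were read from the bin of -1750 to -1500 bp onward, while 32 deep CpGs lay farther from ORF2, at -2000 to -1750 bp. The 5′ stretches of both sets therefore differ, and their 5′ means cannot be compared directly. The deep CpGs were placed by sequence similarity and need not lie in these elements. Reads of copies may be shared between both sets. In the 5′ region, 14939 such CpGs had 68.9% in WT, 44.7% without *Dnmt3a* and 50.2% without *Dnmt3b*, a mean difference between the KO lines of 5.51 points. In ORF1, ORF2 and the 3′ region the KO lines differed by 15.7, 19.8 and 17.2 points. The difference of *Dnmt3b* KO ESCs from WT was -18.8 points in the 5′ region and -3.15, -7.22 and -6.16 points in the other parts. In bins of 250 bp, the deep CpGs of the bin ending 1500 bp before ORF2 had 32.9% without *Dnmt3a* and 33.8% without *Dnmt3b*, and those of the next bin toward ORF2 48.9% and 61.4%. CpGs of 10 to 500 reads had 39.1% and 40.6% in the first of these bins and 53.2% and 64.9% in the next.

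**Figure D3:**
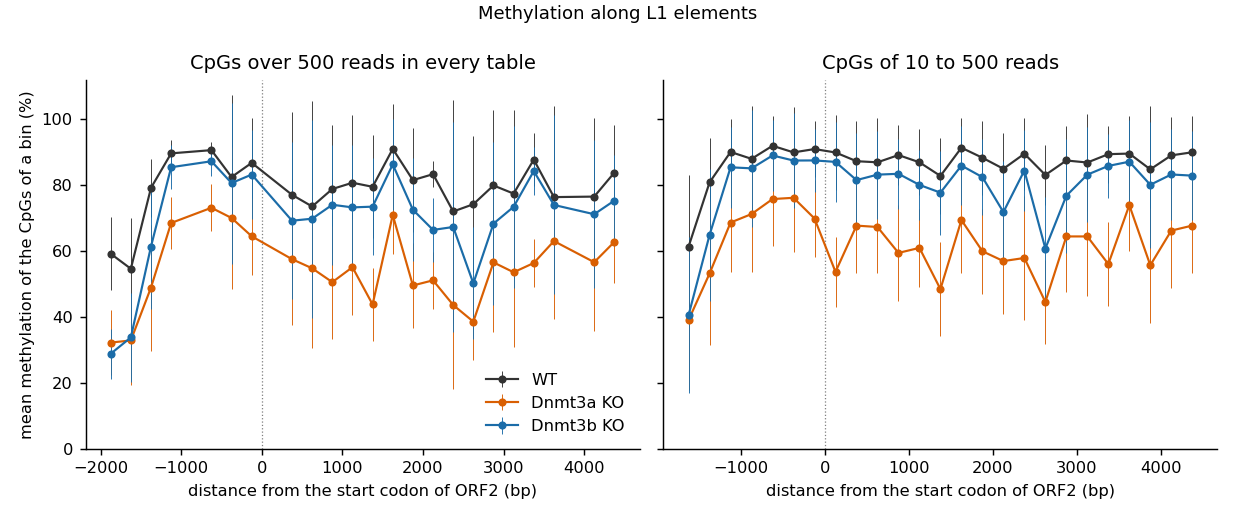
Mean methylation in percent of the CpGs in bins of 250 bp along L1 elements, by distance from the start codon of ORF2 (dotted line), for deep CpGs (left) and CpGs of 10 to 500 reads (right); bars are the SD over CpGs of a bin and bins with under 15 CpGs are left out. In most bins of ORF1 and ORF2 *Dnmt3b* KO means lie nearer to WT than to *Dnmt3a* KO means, but not for deep CpGs from 2000 to 2250 bp (83.3%, 51.1% and 66.4%) or from 2500 to 2750 bp (74.2%, 38.6% and 50.2%), nor in the latter bin for CpGs of 10 to 500 reads (83.1%, 44.6% and 60.8%), and the KO lines come closest in the 5′ bins farthest from ORF2.

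Position 267 of ORF2 was far lower in *Dnmt3b* KO ESCs than its neighbour at 257. At 267, the 29 CpGs had 86.5% in WT, 60.3% ± 3.21 without *Dnmt3a* and 64.9% ± 3.75 without *Dnmt3b* (SD over CpGs). At 257, 10 bases before it in the sequence shown above, the 27 CpGs had 86.7%, 60.7% ± 3.72 and 81.2% ± 3.5, so that the means of the neighbours lay close together in WT and *Dnmt3a* KO ESCs and over 1 SD apart in *Dnmt3b* KO ESCs. Position 267 lies in ATCGAC in 27 of 29 copies, the context that kept the least of the WT level in *Dnmt3b* KO ESCs genome-wide (79.0%, lowest of 136). The 58 deep CpGs of the bin from 2500 to 2750 bp had a *Dnmt3b* KO mean of 50.2%. At 2535, within this bin, the 22 CpGs lie in AACGAA and had 79.8%, 40.1% and 50.3%. This was the largest difference of *Dnmt3b* KO ESCs from WT at the 23 positions (-29.5 points). Genome-wide, AACGAA kept 87.5% of the WT level in *Dnmt3b* KO ESCs and ranked 17th lowest of 136. The largest difference of *Dnmt3a* KO ESCs was at 1302 (82.3%, 40.4% and 73.8%), mostly GACGAA. The smallest was in the 3′ region, at 4100, with 51.8%, 43.4% and 50.4%, where WT itself was the lowest of the 23 positions. WT values of single CpGs ranged from 34.5% to 72.1% at 4100 and from 9.54% to 95.1% at 488. Reads at an L1 position may include reads of copies without the CpG, and their part in the values was not tested. Position 1662 in ORF2 stayed high in *Dnmt3b* KO ESCs, with 94.2%, 74.4% and 92.5% over 49 CpGs.

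Contexts were followed over the L1 CpGs outside the 5′ region with at least 50% methylation in WT, for the 39 contexts that had at least 10 of them. The lowest share kept in *Dnmt3a* KO ESCs was 49.1% in GACGAA, and CACGTG, the second lowest context genome-wide, kept 52.8%. In *Dnmt3b* KO ESCs AACGAA (68.9%), GTCGAA (69.3%) and ATCGAC (75.7%) kept the least and GACGGA the most (98.5%). Genome-wide, the first 3 of these ranked 17th, 12th and lowest of 136. ATCGAT and ATCGAG, which ranked 3rd and 6th lowest genome-wide, kept 91.5% and 95.6% in L1. CpGs of a context sit at few positions of the element, so that context and position cannot be told apart here.

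**Figure D4:**
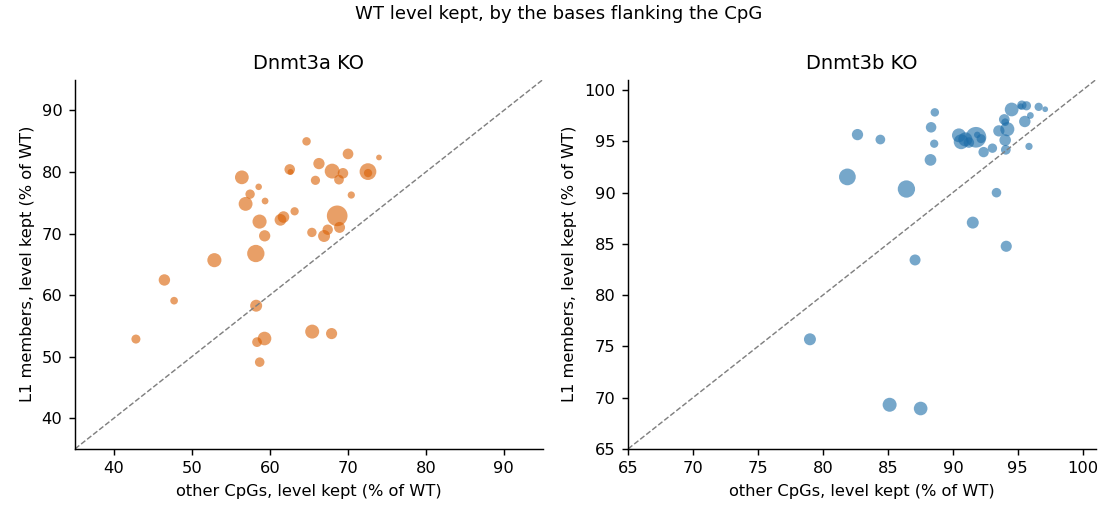
Share of the WT methylation level kept in each KO line (percent) for 39 contexts of 2 bases on each side of the CpG, in CpGs outside the set (x axis) and in deep L1 CpGs outside the 5′ region (y axis); point area follows the number of L1 CpGs and the dashed line marks equal shares. Most contexts lie above the line, and a few lie well below it in each KO line.

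Most CpGs of the 5′ region belonged to 2 sequence families. In the family of 9 loci with the stretch shown above, the 59 CpGs had 65.04% in WT, 38.2% without *Dnmt3a* and 38.2% without *Dnmt3b*. Its locus with the most CpGs (chr11:71197199-71198299, 26 CpGs) had 63.8%, 37.2% and 36.7%. In *Wdr37* (chr13:8809066-8809090) 5 CpGs of the same family had 70.5%, 42.9% and 40.2%, and in *Gpc6* (chr14:117946120-117946276) 6 CpGs had 76.1%, 50.5% and 46.8%. These were the 3 loci with the largest difference of *Dnmt3b* KO ESCs from WT among L1 loci with at least 5 CpGs. In the other family the 65 CpGs of the 5′ region had 54.8%, 33.0% and 35.7%. The locus in *Zpbp* (chr11:11187739-11188512) had 53.9%, 31.6% and 32.2%, and chr10:14783667-14784316 had 42.7%, 26.7% and 22.6%. An L1 family of 16 loci had a mean over loci of 90.2%, 68.4% and 86.1%, and its locus with the most CpGs was chr17:42209037-42209324. Sequence shared from locus to locus joined 905 loci, most of them L1, into the largest family, which therefore spans different parts of the element. A locus in *Trmt11* (chr10:30274920-30275221) had the smallest difference of *Dnmt3b* KO ESCs among L1 loci with at least 5 CpGs, at 77.5% in WT, 60.2% without *Dnmt3a* and 77.3% without *Dnmt3b*.

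The *Sfi1* cluster (chr11:3027217-3099743) holds *Sfi1*, which encodes a centrosomal protein, with *Drg1* and *Pisd-ps1*. Its 331 CpGs had 84.9% in WT, 53.2% without *Dnmt3a* and 79.2% without *Dnmt3b*. Of these, 268 (81.0%) were lower by over 20 points in *Dnmt3a* KO ESCs and 13 (3.93%) in *Dnmt3b* KO ESCs. The shares were 67.4% and 16.9% of all CpGs, and 61.6% and 11.8% of CpGs of 400 to 500 reads. Only 8.16% of the CpGs of the cluster had their 32 bases at more than 1 place of the reference, although their depth was like that of the L1 CpGs. The largest locus (chr11:3091588-3095363, 66 CpGs) had 77.1%, 38.6% and 65.6%. At chr11:3041911-3046289 (32 CpGs) the values were 85.9%, 45.4% and 77.6%, and at chr11:3071176-3071668 (5 CpGs) 92.9%, 52.9% and 89.9%. The lowest *Dnmt3a* KO values next to high WT values were at chr11:3046978-3046983, where 2 CpGs had 74.6%, 10.03% and 61.7%. Other large loci had smaller differences, such as chr11:3031791-3032596 (93.6%, 69.6% and 89.7%) and chr11:3033107-3034793 (92.9%, 65.3% and 90.4%). Values at chr11:3036473-3037695 were 83.5%, 59.4% and 80.04%, and at chr11:3055577-3057391 84.6%, 56.1% and 80.3%.

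A family of 3 loci of no class was also low in *Dnmt3a* KO ESCs. Its main locus (chr15:74916118-74917370, 11 CpGs, 45951 WT reads) had the largest difference from WT among loci with at least 5 CpGs, with 65.9% in WT, 15.3% without *Dnmt3a* and 56.9% without *Dnmt3b*. Flanking CpGs 1 to 5 kb away had 75.04%, 42.0% and 70.8%. The locus had 4177 WT reads per CpG. Whether these include reads of other copies, and so of other DNA than the flanks, was not tested. A second copy (chr14:9119286-9119347) had 73.0%, 17.98% and 56.5%. A stretch of the main locus is shown from chr15:74917084-74917323.
Locus of chromosome 15: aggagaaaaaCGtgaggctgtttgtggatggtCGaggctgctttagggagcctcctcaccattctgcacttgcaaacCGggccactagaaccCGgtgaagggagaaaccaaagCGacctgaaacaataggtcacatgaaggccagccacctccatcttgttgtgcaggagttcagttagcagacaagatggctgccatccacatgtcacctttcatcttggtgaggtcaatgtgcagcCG
A pair of related loci lay on chromosome 4, and the first was a tandem repeat with a period of 44 bp, shown from chr4:118220334-118220513.
Short tandem repeat: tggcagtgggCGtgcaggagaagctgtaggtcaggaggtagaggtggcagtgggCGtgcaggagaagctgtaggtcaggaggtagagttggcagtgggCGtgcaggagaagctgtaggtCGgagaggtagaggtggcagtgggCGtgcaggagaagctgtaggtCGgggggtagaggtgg
The locus at chr4:118220344-118220610 (6 CpGs) had 90.5%, 49.8% and 70.4%, and its neighbour at chr4:118221182-118221292 (5 CpGs) had 89.7%, 44.3% and 68.6%. Differences of *Dnmt3b* KO ESCs from WT were -20.1 and -21.1 points.

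The third copy of the family of chromosome 15 lay on chromosome 18 and had 77.5%, 12.9% and 65.6%. In contrast, a family of 8 loci on chromosomes 1, 3, 12, 14 and 18 stayed high. Its mean over loci was 94.5% in WT, 82.9% without *Dnmt3a* and 92.4% without *Dnmt3b*, and its locus with the most CpGs (chr12:18284023-18284190, 7 CpGs) had 94.2%, 81.3% and 91.4%.

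**Figure D5:**
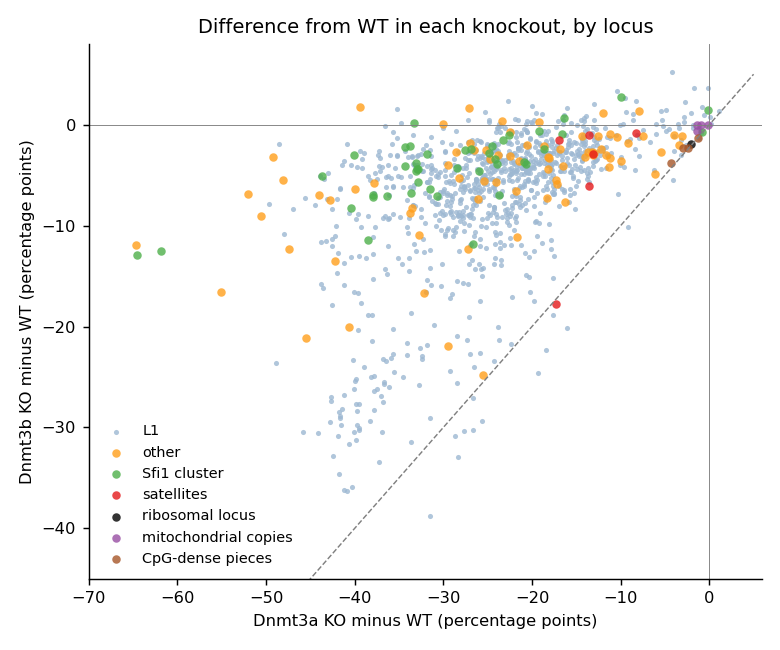
Difference from WT in percentage points of each of the 1091 loci in *Dnmt3a* KO (x axis) and *Dnmt3b* KO ESCs (y axis), coloured by class, with the dashed line at equal differences. Loci above the line were lower without *Dnmt3a* than without *Dnmt3b*, and 16 loci lie below it, of which 15 are L1 loci and 1 is the satellite locus with CpGs in minor units only. Locus values are means over CpGs, and the pooled reads of this satellite locus had the other order.

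Ribosomal, mitochondrial and CpG-dense loci had low methylation in all genotypes. The ribosomal locus (chr17:39979997-39985655) overlaps the pseudogene *AY036118*, next to which RefSeq (GRCm38.p6, used for names only) lists *Rn18s-rs5*, an 18S ribosomal RNA related sequence. Its 508 CpGs had a mean of 2.63% in WT, 0.536% without *Dnmt3a* and 0.731% without *Dnmt3b*, and 497 and 491 of them were below WT in the KO lines. Pooled over 659389 WT reads the share was 2.76% (95% Wilson interval 2.72 to 2.80), against 0.575% (0.556 to 0.594) and 0.761% (0.741 to 0.781). In 12 stretches of 500 bp along the locus the WT mean was between 1.84% and 3.29%, and no KO mean was above 0.98%. The share of all CpGs below WT by any amount was not computed, so that the counts below WT have no background. Unconverted cytosines count as methylated, so that incomplete conversion may be part of values this low. Its part was not tested, and the intervals do not cover it. The mitochondrial copies give a second low level for comparison. The largest of them (chr1:24618417-24622995, 74 CpGs, overlapping *Gm10222* and *Gm10925*) had 0.649%, 0.542% and 0.642%. The second largest (chr12:98299679-98299975, 12 CpGs) had 2.13%, 0.723% and 1.46%, and chr2:22444906-22445523 (6 CpGs, in *Myo3a*) had 4.06%, 2.73% and 4.01%.

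CpG-dense pieces had 3.32% in WT, 0.806% without *Dnmt3a* and 1.11% without *Dnmt3b* over 137 CpGs, with 130 of them below WT in each KO line. These counts and low values have the limits given for the ribosomal locus. The piece at chr16:11144068-11144367 (46 CpGs) overlaps *mmu-mir-689-2* and lies in *Zc3h7a*, and had 2.00%, 0.685% and 0.708%. That at chr16:57391449-57391771 (38 CpGs, in *Filip1l* and *2610528E23Rik*) had 3.05%, 0.628% and 0.782%. The flanks of their listed places were methylated, with 94.9% in WT, 64.5% without *Dnmt3a* and 90.8% without *Dnmt3b* around the first. Around the second they had 92.3%, 48.98% and 82.8%. The pieces had 828 and 1135 WT reads per CpG. The exact bases around their CpGs occurred at a median of 3 and 2 places of the genome. Their reads may therefore come from other copies, so that piece and flank values may describe different DNA. Whether the listed places themselves have low methylation was not tested.

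Strands were compared where every genotype had at least 100 reads on each, at 1098 CpGs, of which only 1 was in L1. In the major satellite the 2 strands of a CpG differed by a median of 1.43 points in WT, 2.43 without *Dnmt3a* and 1.55 without *Dnmt3b*, and the mean difference of *Dnmt3a* KO ESCs from WT was -13.2 points on the plus and -12.3 on the minus strand. In the minor satellite *Dnmt3b* KO ESCs differed from WT by -13.6 points on the plus and -13.1 on the minus strand.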

How the data were processed

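WGBS reads of 9 libraries (3 for each of 3 genotypes) were mapped by the authors to mm9 with BSMAP at default parameters and filtered with BSeQC for end-repair bases, clonal reads and overlapping mate segments. Methylation was called with mCall of MOABS. What these parameters do with several equal matches is not spelled out in the sources used here. The deposited tables give, for each CpG, the count of methylated reads and the total count on both strands and on each strand. They also give the methylated fraction computed by the authors. The WT table stops on chromosome 4 at an incomplete line, so chromosomes 5 to 9, X and M were not analysed in WT.

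Methylation was taken as methylated over total counts for each CpG, and a locus as the mean of its CpGs. No test between genotypes was made. The 95% Wilson intervals and all shares of reads cover counting error only, since PCR reads are not independent molecules. Bisulfite treatment does not separate 5-methylcytosine from 5-hydroxymethylcytosine. Differences over 20 percentage points were counted against all CpGs with at least 10 reads in every table.

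Sequence families joined loci that, widened by 100 bp, shared at least 20% of their 20-mers. Satellite units were found from self-identity in windows of 250, 300 and 500 bp inside the loci, because the period over whole loci was not found, and L1 CpGs were placed by BLAST against elements with a full ORF2. Both steps were added after seeing the data. The reference used here is not soft-masked, so that no share of masked bases was computed. Loci were named by rule: the 10 with the most reads, the locus with the most CpGs in each of the 5 largest families, the 3 lowest and 3 highest differences of each comparison among loci with at least 5 CpGs, and up to 10 loci in exons. Further loci were named after their values were seen. The CpGs, classes and lists were chosen with earlier results of these data known. The code was tested on simulated data. Python 3.11.15, NumPy 2.4.6, pandas 2.3.3, SciPy 1.17.1, numba 0.67.0, Biopython 1.88, BLAST 2.17.0 and matplotlib 3.10.9 were used.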

Additional observations from a re-analysis of the deposited data

Results flagged for a closer look

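Deep CpGs on chromosomes outside the WT table entered no comparison with WT, and their values in the KO tables are given here because they are signal in data not used above. Over 500 reads were found in both KO tables at 1271 such CpGs in 82 loci. Major satellite CpGs on chromosome 9 (741 CpGs) had a mean of 70.9% without *Dnmt3a* and 85.9% without *Dnmt3b*. At place 32 of the unit, the 140 CpGs had 55.8% (44.2% to 65.1%) without *Dnmt3a* and 85.9% (76.6% to 90.8%) without *Dnmt3b*, and these ranges did not overlap. Lower values were found at 3 places at which the unit has no CpG but some copies do, with 25.7% and 22.6% at place 192 (8 CpGs), 35.3% and 35.6% at place 4 (5 CpGs) and 36.5% and 45.5% at another (5 CpGs). The reads at these places may include reads of copies without the CpG, and their part in the values was not tested. Minor satellite CpGs (8) had 73.2% and 78.7%, and L1 CpGs (8) had 50.0% and 67.7%. CpGs of the mitochondrial genome (chromosome M, 287 CpGs) had 0.277% and 0.329%. The other 227 CpGs had 43.0% without *Dnmt3a* and 57.1% without *Dnmt3b*.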

How the results depend on the processing

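No paired analysis was possible because every genotype has 1 table that pools its 3 libraries, and this also meant that no replicate could be left out. No difference changed sign under any alternative run, and leaving out the locus with the most reads moved the means over CpGs by under 0.1 points and left the medians over loci nearly the same, though it was not left out of the pooled reads below, of which it holds most. Values are given as the mean difference over CpGs of *Dnmt3a* KO from WT, of *Dnmt3b* KO from WT and of *Dnmt3b* KO from *Dnmt3a* KO ESCs, then the median differences over loci of both KO lines, in percentage points, then the CpGs lower by over 20 points in each. With a limit of 300 reads they were -21.0, -6.74, 14.2, -23.4, -5.03, 3200 and 546 in 1977 loci. With 1000 reads they were -15.7, -4.74, 10.96, -24.2, -4.66, 418 and 53 in 381 loci. With 20 times the median depth the differences were -20.2, -6.27, 13.9, -23.8 and -5.07. Loci of at least 3 CpGs gave -16.7, -5.24, 11.4, -22.3, -4.89, 887 and 128 in 302 loci. The minus strand alone gave -12.8, -3.41, 9.35, -24.9, -3.60, 343 and 32, since few L1 CpGs had reads on it, and the plus strand alone a *Dnmt3b* KO median of -4.91. Pooled reads gave -13.8, -1.78 and 12.0, set mostly by the major satellite, and the mean over loci -24.4, -6.98 and 17.4. The *Dnmt3a* KO median over loci was -24.3 with merging at 200 bp, -23.9 at 1000 bp and -24.0 from pooled reads of each locus. With each sequence family as 1 locus the medians were -24.8 and -3.76. A 95% credible interval beyond 20 points left 845 and 91 CpGs. In the L1 5′ region the *Dnmt3b* KO minus *Dnmt3a* KO difference was 1.79 at deep CpGs and 5.51 at CpGs of 10 to 500 reads, an alternative chosen after seeing the data. The deep CpGs reach farther from ORF2, so that these 2 values cover different stretches. Where no construction is named the cause was not tested. No replicate error could be had from 1 pooled table per genotype, and the intervals from read counts do not cover it.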
